A study of Mus musculus with 6 samples.

Results

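The core circadian clock genes examined here were Clock, Per1, Per2, Per3, Cry1, Cry2, Nr1d1, Nr1d2, Dbp and Tef. They were chosen by gene symbol from the platform annotation of the deposited table, which gave 10 of the 19505 genes tested, each read by 1 probe set. Their Entrez Gene identifiers, in this order, are 12753, 18626, 18627, 18628, 12952, 12953, 217166, 353187, 13170 and 21685. Crypts of the small intestine of C57bl/6 mice had been profiled on Affymetrix arrays, 1 array per sample. The CSN8ΔIEC group held 3 samples from mice taken, as the genotype's name says, to lack Cops8 in intestinal epithelial cells. The CSN8fl/fl group held 3 samples from mice carrying the loxP-flanked Cops8 alleles. In each group, replicates 1 and 2 were labelled female of 16 weeks and replicate 3 male of 10 weeks. The Cre line behind the deletion, the hour of collection, the lighting schedule and the feeding state were not stated in the labels. The labels call the samples biological replicates without saying that each came from its own mouse, so the p-values rest on a spread between samples that may in part be technical.

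The clock is a transcriptional loop with a period of about a day. CLOCK pairs with BMAL1, the product of Arntl, and the pair binds E-box motifs and turns on the Per, Cry, Nr1d1, Nr1d2, Dbp and Tef genes. PER and CRY proteins then repress the pair, the nuclear receptors REV-ERBα and REV-ERBβ (Nr1d1 and Nr1d2) repress Arntl, Npas2 and Nfil3, and DBP and TEF act on D-box motifs of output genes. PER and CRY are degraded through cullin-RING ubiquitin ligases, the enzymes from which the COP9 signalosome, of which CSN8 is a subunit, removes NEDD8. In the gut epithelium the clock is known for daily rhythms of nutrient transporters and of proliferation.

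Several features of the arrays bear on all values below. Cops8 was at 7.68, 7.61 and 7.77 in CSN8ΔIEC crypts, against 8.26, 8.22 and 8.10 in CSN8fl/fl crypts (log2 signals of replicates 1 to 3), a difference of −0.50 ± 0.11 (SE) that missed the threshold of 0.05 after adjustment over all genes (limma, adjusted p = 0.0865). The Y-linked genes Eif2s3y, Uty and Kdm5d went against the sex labels. They lay between 7.50 and 10.1 on the 4 arrays labelled female and between 2.81 and 4.06 on the 2 labelled male, so sex is given below only as labelled. CSN8fl/fl replicate 3 was the least typical array (r = 0.976 to 0.986 against each of the other 5, over all probe sets). The genotype difference of each clock gene is therefore given with and without it. Values of other genes and lists are from all 6 arrays unless the text says otherwise. Paneth, stem cell and enterocyte markers were all present, with Lyz1 between 12.4 and 13.7, Lgr5 between 8.05 and 8.63 and Sis between 12.9 and 13.5. In crypt RNA, fewer cells of a type and less RNA per cell cannot be told apart.

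In the fit on genotype alone, none of the 10 clock genes differed past the threshold of 0.05 on the adjusted p, with all 6 arrays or without CSN8fl/fl replicate 3. The same test called 1.08% of all genes with 6 arrays and 0.774% with 5, so a count of 0 among 10 is near the background. At an unadjusted p under 0.05 there were 2 clock genes, Nr1d1 and Tef, against 15% of all genes, and 1, Tef, without CSN8fl/fl replicate 3, against 13.3%. Differences were below 0 for 8 of the 10 genes and for 51.8% of all genes, with a median of −0.30 against −0.01 over all genes. Without CSN8fl/fl replicate 3 they were below 0 for 5 of 10, against 52% of all genes, with a median of 0.02.

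**Figure D1:**
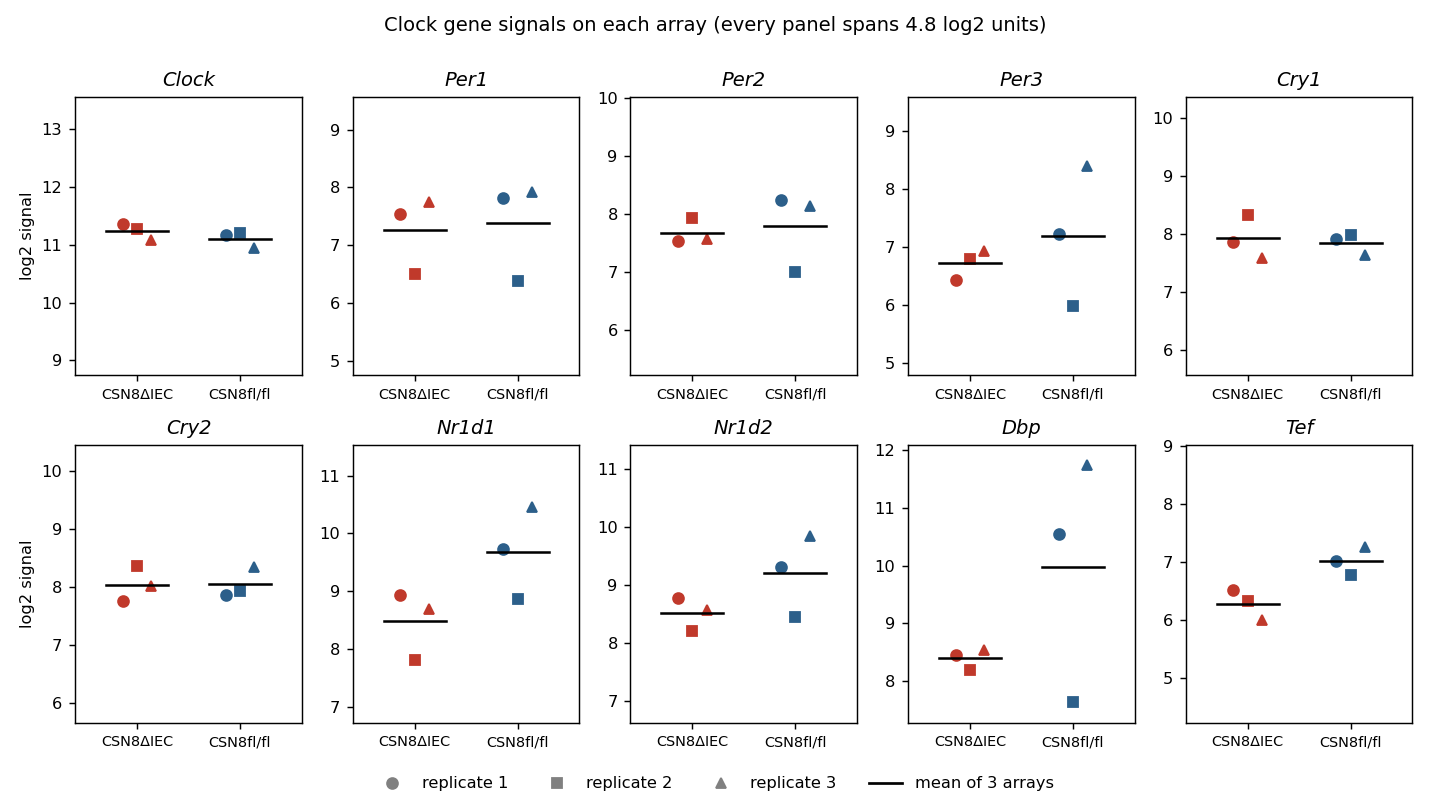
Log2 signal of each clock gene (vertical axes, all spanning 4.8 units) on the 3 CSN8ΔIEC arrays (red, left) and the 3 CSN8fl/fl arrays (blue, right), with the marker shape giving the replicate number and the black line the mean of 3 arrays. In Tef, all 3 CSN8ΔIEC values lie below all 3 CSN8fl/fl values, and in Dbp the CSN8fl/fl values spread from 7.65 to 11.73 around CSN8ΔIEC values of 8.20 to 8.55.

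Among the positive factors, only Clock belongs to the set. Its protein is the partner of BMAL1 in the E-box activator. Clock was at 11.36, 11.27 and 11.09 in CSN8ΔIEC crypts, against 11.16, 11.21 and 10.94 in CSN8fl/fl crypts. The groups overlapped, and the difference was 0.13 ± 0.13 (95% interval −0.16 to 0.43, adjusted p = 0.67). Without CSN8fl/fl replicate 3 it was 0.05 ± 0.13 (adjusted p = 0.897). Clock had the narrowest interval of the 10 genes, and its bounds correspond to 0.893 and 1.35 times the CSN8fl/fl level.

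The period genes encode the repressors PER1, PER2 and PER3. Per1 was at 7.55, 6.50 and 7.74 in CSN8ΔIEC crypts, against 7.82, 6.39 and 7.93 in CSN8fl/fl crypts. Replicate 2 was the low array in both genotypes, and the group means differed by −0.12 ± 0.44 (adjusted p = 0.921). Per2 was at 7.52, 7.93 and 7.57 in CSN8ΔIEC crypts, against 8.24, 6.99 and 8.13 in CSN8fl/fl crypts, a difference of −0.11 ± 0.30 (adjusted p = 0.889). Here replicate 2 was the highest of the CSN8ΔIEC arrays and the lowest of the CSN8fl/fl arrays. Per3 was at 6.44, 6.79 and 6.93 in CSN8ΔIEC crypts, against 7.22, 5.99 and 8.40 in CSN8fl/fl crypts, a difference of −0.48 ± 0.49 (adjusted p = 0.685). The CSN8ΔIEC values of Per1, Per2 and Per3 all lay between the lowest and the highest CSN8fl/fl value. Without CSN8fl/fl replicate 3 the 3 differences were 0.16, 0.06 and 0.12, on the other side of 0 (adjusted p from 0.91 to 0.956). They were −0.61, −0.51 and −1.09 without CSN8fl/fl replicate 2.

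The cryptochromes CRY1 and CRY2 bind CLOCK and BMAL1 directly and are the stronger repressors of the loop. Cry1 was at 7.86, 8.34 and 7.59 in CSN8ΔIEC crypts, against 7.92, 7.98 and 7.63 in CSN8fl/fl crypts, a difference of 0.08 ± 0.19 (adjusted p = 0.869). Cry2 was at 7.76, 8.36 and 8.01 in CSN8ΔIEC crypts, against 7.86, 7.94 and 8.34 in CSN8fl/fl crypts, and the means of 8.04 and 8.05 were nearly equal (adjusted p = 0.993). The 95% intervals ran from −0.36 to 0.53 for Cry1 and from −0.43 to 0.42 for Cry2. Without CSN8fl/fl replicate 3 the differences were −0.02 for Cry1 (adjusted p = 0.977) and 0.14 for Cry2 (adjusted p = 0.772). For both genes replicate 2 was the highest of the CSN8ΔIEC arrays. Cry1 had the second smallest range among the clock genes over the CSN8fl/fl arrays, 0.35, after 0.27 for Clock.

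The REV-ERB genes had lower means in CSN8ΔIEC crypts. Nr1d1 was at 8.94, 7.81 and 8.70 in CSN8ΔIEC crypts, against 9.73, 8.88 and 10.45 in CSN8fl/fl crypts. The highest CSN8ΔIEC array, replicate 1, was slightly above the lowest CSN8fl/fl array, replicate 2, so the groups overlapped. The difference was −1.20 ± 0.40, or 2.3-fold (95% interval −2.10 to −0.30, unadjusted p = 0.0148, adjusted p = 0.208), and −0.82 ± 0.36 without CSN8fl/fl replicate 3 (adjusted p = 0.389). With the replicate number as a block in the limma model, the Nr1d1 difference was −1.20 ± 0.20 and passed the threshold (adjusted p = 0.0426). Whether the numbers pair the arrays was not stated in the labels. Nr1d2 was at 8.77, 8.20 and 8.57 in CSN8ΔIEC crypts, against 9.31, 8.45 and 9.84 in CSN8fl/fl crypts, with the same overlap between high CSN8ΔIEC arrays and CSN8fl/fl replicate 2. Its difference was −0.69 ± 0.31 (adjusted p = 0.345), and −0.37 ± 0.27 without CSN8fl/fl replicate 3 (adjusted p = 0.603). For both genes replicate 2 was the lowest array within each genotype, and CSN8fl/fl replicate 3 was the highest of all.

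**Figure D2:**
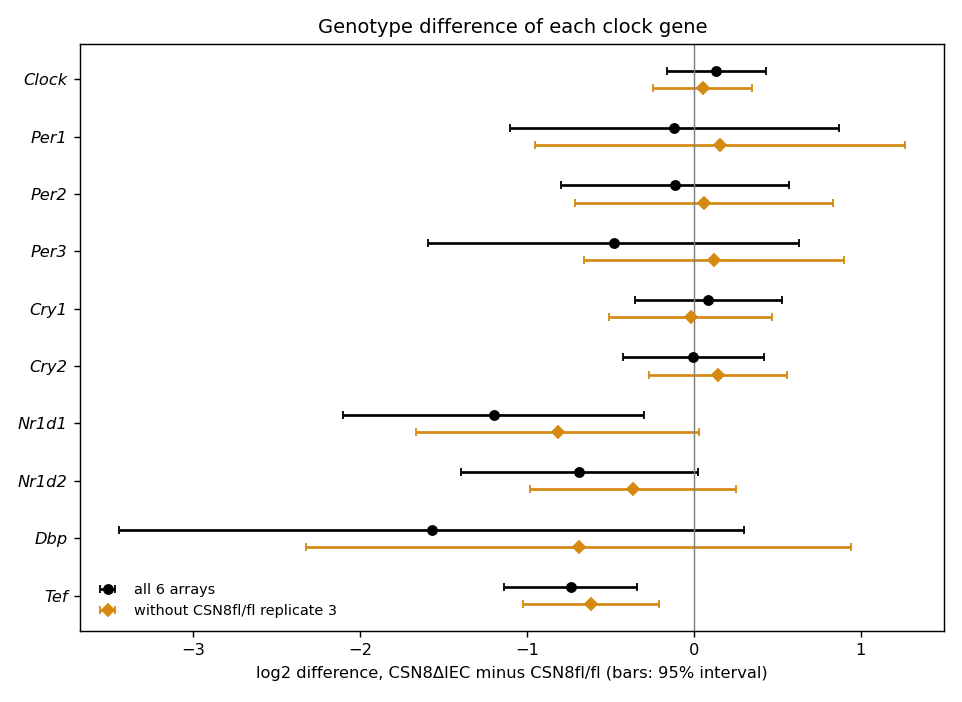
Log2 difference between CSN8ΔIEC and CSN8fl/fl crypts (horizontal axis) for each clock gene, with 95% intervals from limma as bars, over all 6 arrays (black circles) and without CSN8fl/fl replicate 3 (orange diamonds). The intervals of Nr1d1 and Tef lie below 0 with 6 arrays and only that of Tef does with 5. In neither of these fits did a clock gene pass the threshold after adjustment over all genes.

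The PAR bZIP factors DBP and TEF are outputs of the loop that drive other rhythmic genes through D-boxes. Dbp was at 8.46, 8.20 and 8.55 in CSN8ΔIEC crypts, against 10.54, 7.65 and 11.73 in CSN8fl/fl crypts. All 3 CSN8ΔIEC arrays lay within 0.35 of each other, while CSN8fl/fl replicate 2 was below them and CSN8fl/fl replicates 1 and 3 far above. The mean was 8.40 ± 0.18 in CSN8ΔIEC and 9.97 ± 2.10 in CSN8fl/fl crypts (SD, n = 3 each), a difference of −1.57 ± 0.83 (95% interval −3.44 to 0.30, adjusted p = 0.416). The Dbp difference was −0.69 ± 0.70 without CSN8fl/fl replicate 3 (adjusted p = 0.716). Without CSN8fl/fl replicate 2 it was −2.73 ± 0.31 and passed the threshold (adjusted p = 0.0166), so that 1 array decides the call.

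Tef was the only clock gene whose groups did not overlap. It was at 6.52, 6.32 and 5.99 in CSN8ΔIEC crypts, against 7.01, 6.78 and 7.26 in CSN8fl/fl crypts. The mean was 6.28 ± 0.27 in CSN8ΔIEC and 7.02 ± 0.24 in CSN8fl/fl crypts (SD, n = 3 each). The difference of −0.74 ± 0.17, or 1.67-fold, had a 95% interval of −1.14 to −0.34 (unadjusted p = 0.00227, adjusted p = 0.0976). It was −0.62 ± 0.17 without CSN8fl/fl replicate 3 (adjusted p = 0.195), and the 3 CSN8ΔIEC values still lay below the other 2 CSN8fl/fl values. Groups that do not overlap, lower in CSN8ΔIEC crypts, were found in 11.7% of all genes with 6 arrays and in 16.8% without CSN8fl/fl replicate 3, so that 1 of 10 clock genes is near the background. In either direction the shares were 22.4% and 31.8%.

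Promoters from RefSeq (GRCm38.p6, 250 bases before to 50 after a gene's start, written on the gene's own strand) were available for 9 of the 10 genes, all but Per2. The motifs searched on both strands were the E-box CACGTG, the E′-box CACGTT, the D-box TTATGTAA and the half-site AGGTCA bound by ROR and REV-ERB receptors, and no matches overlapped. They occur in 7.15%, 4.68%, 0.938% and 16.3% of the 32851 promoters of the same length. Among the clock genes, Per1, Cry1 and Tef hold the E-box, Cry1, Cry2 and Nr1d1 the E′-box, Per3 the D-box and Clock, Per1 and Nr1d2 the half-site. The promoters of Dbp and Per3 are shown because these genes had the widest spread over the CSN8fl/fl arrays, and those of Nr1d1 and Tef because their unadjusted p was the smallest. Capitals mark motif matches, and positions count from the first base of the gene as 0.
Dbp, chr7:45704997-45705296, plus strand, no match in this window: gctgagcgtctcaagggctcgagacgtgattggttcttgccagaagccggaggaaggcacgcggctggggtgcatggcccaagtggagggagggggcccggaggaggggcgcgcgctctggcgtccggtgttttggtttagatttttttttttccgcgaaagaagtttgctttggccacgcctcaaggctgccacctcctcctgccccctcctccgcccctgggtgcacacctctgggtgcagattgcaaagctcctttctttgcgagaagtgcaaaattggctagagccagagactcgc
Per3, chr4:151044616-151044915, minus strand, D-boxes at −205 to −198 and −158 to −151: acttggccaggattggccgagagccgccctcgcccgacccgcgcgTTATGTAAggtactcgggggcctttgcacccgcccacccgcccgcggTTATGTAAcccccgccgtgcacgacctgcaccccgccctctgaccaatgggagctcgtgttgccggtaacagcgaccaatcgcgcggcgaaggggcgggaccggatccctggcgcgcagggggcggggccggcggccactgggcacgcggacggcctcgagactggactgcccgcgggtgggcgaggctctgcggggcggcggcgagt
Nr1d1, chr11:98775328-98775627, minus strand, E′-box read on the opposite strand at −28 to −23: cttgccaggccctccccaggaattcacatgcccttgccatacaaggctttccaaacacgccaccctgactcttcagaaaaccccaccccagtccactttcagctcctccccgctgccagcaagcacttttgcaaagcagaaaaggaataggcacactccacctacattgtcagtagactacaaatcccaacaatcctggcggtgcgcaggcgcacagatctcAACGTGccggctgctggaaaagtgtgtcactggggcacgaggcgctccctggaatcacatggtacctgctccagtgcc
Tef, chr15:81802423-81802722, plus strand, E-box at −127 to −122: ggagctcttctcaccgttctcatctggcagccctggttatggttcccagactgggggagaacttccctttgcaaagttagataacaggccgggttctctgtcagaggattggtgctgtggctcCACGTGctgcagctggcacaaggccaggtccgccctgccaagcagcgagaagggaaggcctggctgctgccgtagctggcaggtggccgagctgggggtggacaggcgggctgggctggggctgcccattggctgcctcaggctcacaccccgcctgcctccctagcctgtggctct
The second Tef promoter in RefSeq, at chr15:81811164-81811463, also holds the E-box, at −138 to −133. These matches describe letters in the windows and are not measured binding sites.

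Several clock genes were spread widely within the CSN8fl/fl group. Over the 3 CSN8fl/fl arrays, 6 of the 10 (Per1, Per2, Per3, Nr1d1, Nr1d2 and Dbp) spanned at least 2-fold, against 2.87% of all genes. Over the 3 CSN8ΔIEC arrays 2 did so (Per1 and Nr1d1), against 1.13% of all genes. These shares are descriptions of 3 arrays each and were not tested. Dbp spanned 0.35 over the CSN8ΔIEC arrays and 4.09, or 17.0-fold, over the CSN8fl/fl arrays. Only 4 of the 19505 genes had a larger CSN8fl/fl range, the Y-linked Eif2s3y, Uty and Kdm5d and the fibronectin gene Fn1 (named after their values were seen). Per3 spanned 0.49 over the CSN8ΔIEC arrays and 2.41, or 5.33-fold, over the CSN8fl/fl arrays, and 22 genes had a larger CSN8fl/fl range.

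Per1 and Nr1d1 were spread in both genotypes. Per1 spanned 1.24 over the CSN8ΔIEC arrays and 1.54 over the CSN8fl/fl arrays, and 104 and 118 genes had larger ranges there. Nr1d1 spanned 1.13 over the CSN8ΔIEC arrays and 1.58 over the CSN8fl/fl arrays. The SD over the CSN8fl/fl arrays was at least 2 times that over the CSN8ΔIEC arrays for 4 clock genes, Per2, Per3, Nr1d2 and Dbp. That relation also held for 30.8% of all genes. The CSN8fl/fl SD was the larger one for 7 clock genes and for 62.3% of all genes, so both shares were near the background. The ratio was 11.5 for Dbp, 4.74 for Per3, 3.12 for Per2 and 2.45 for Nr1d2, and 0.49 for Cry1.

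**Figure D3:**
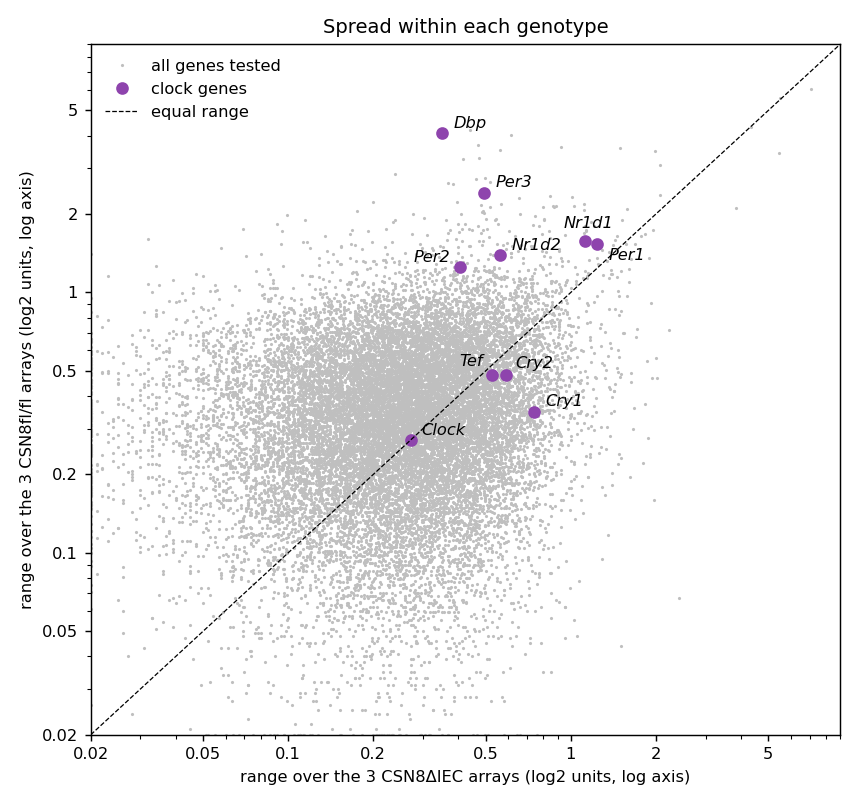
Range of log2 signal over the 3 CSN8ΔIEC arrays (horizontal, log axis) and over the 3 CSN8fl/fl arrays (vertical, log axis), for all 19505 genes (grey, with genes beyond the lower end of an axis drawn at its edge) and for the 10 clock genes (purple), with a dashed line at equal ranges. Dbp lies at 0.35 and 4.09, Per3 at 0.49 and 2.41, and Clock, Tef, Cry1 and Cry2 lie within the body of the cloud.

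The CSN8fl/fl arrays had the same order in most of the spread genes. Replicate 2 was the lowest CSN8fl/fl array for 7 of the 10 clock genes (Per1, Per2, Per3, Nr1d1, Nr1d2, Dbp and Tef), against 28.1% of all genes. For 6 of the 10, all of these but Per2, replicate 1 was between and replicate 3 the highest, against 16.8% of all genes. These genes share the same 3 arrays and are not independent of each other. In CSN8ΔIEC crypts, replicate 2 was the lowest array for 4 genes (Per1, Nr1d1, Nr1d2 and Dbp) and the highest for 3 (Per2, Cry1 and Cry2), against 34.7% and 34.1% of all genes.

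Genes listed as clock transcription factors outside the set ran both with and against these genes. Of 13 listed, 12 were measured. By limma, 1 rose (Timeless, which is not itself a transcription factor, against 0.374% of all genes) and 0 fell (against 0.702%). At an unadjusted p under 0.05 there were 3 (against 15%), and the median difference was −0.18. Arntl, which encodes BMAL1, was at 9.0, 9.36 and 8.95 in CSN8ΔIEC crypts, against 9.30, 10.00 and 8.24 in CSN8fl/fl crypts. Its CSN8fl/fl order was the reverse of that of Dbp, with replicate 2 the highest and replicate 3 the lowest. The genotype means of Arntl differed by −0.08 ± 0.37 with all 6 arrays (adjusted p = 0.94). This difference was −0.55 ± 0.22 without CSN8fl/fl replicate 3 (limma, adjusted p = 0.354), and the groups still overlapped. The small difference with 6 arrays thus depends on that array. Npas2, a paralogue of Clock, and Nfil3, the repressor that competes for D-boxes, were also highest among the CSN8fl/fl arrays in replicate 2, at 9.20 and 7.94, as were 35.2% of all genes. Ciart, a repressor of the CLOCK and BMAL1 pair, was at 5.69, 5.51 and 5.79 in CSN8ΔIEC crypts, against 5.81, 5.48 and 6.88 in CSN8fl/fl crypts, with the order of Dbp. Hlf, the remaining PAR bZIP gene, had that order too (4.37, 3.95 and 5.02 in CSN8fl/fl replicates 1 to 3) but was among 3 factors of the list with a mean in the lowest 25% of all probe sets.

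**Figure D4:**
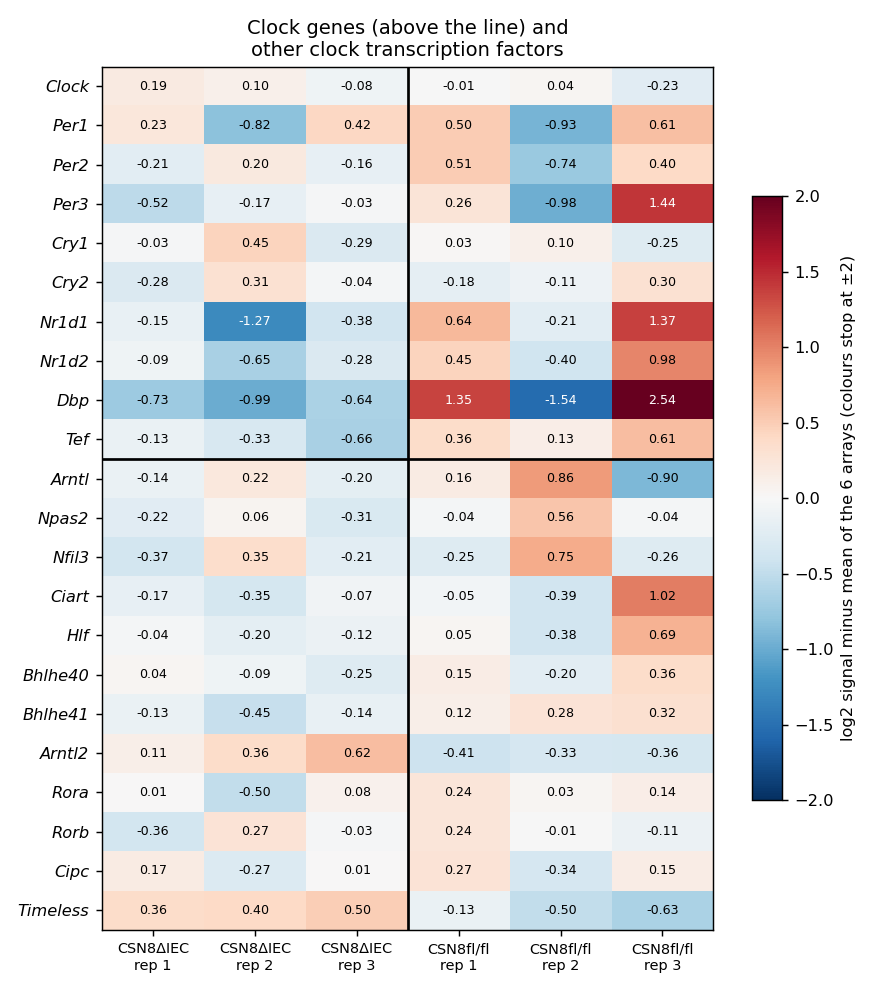
Log2 signal minus the gene's mean over the 6 arrays, for the 10 clock genes (above the horizontal line) and 12 genes listed as other clock transcription factors (below it). The CSN8ΔIEC arrays are in the left 3 columns and the CSN8fl/fl arrays in the right 3. In the CSN8fl/fl columns, Dbp and Arntl have opposite signs on replicates 2 and 3, and the CSN8ΔIEC columns are paler for most genes.

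Timeless, whose mammalian product acts mainly at replication forks, rose 0.84 ± 0.15 in CSN8ΔIEC crypts (7.69 ± 0.07 against 6.86 ± 0.26 in CSN8fl/fl crypts, SD, n = 3 each, adjusted p = 0.0373). Without CSN8fl/fl replicate 3 its difference was 0.73 (adjusted p = 0.0804). All 9 measured proliferation markers had differences above 0, none past the threshold (limma, 6 at an unadjusted p under 0.05, against 15% of all genes), with a mean log2 signal of 10.17, 10.18 and 10.18 in CSN8ΔIEC crypts, against 9.93, 9.83 and 9.20 in CSN8fl/fl crypts. Their part in the Timeless result was not tested. Arntl2, a paralogue of Arntl, was at 5.34, 5.59 and 5.85 in CSN8ΔIEC crypts, against 4.82, 4.90 and 4.87 in CSN8fl/fl crypts, without overlap (0.73 ± 0.15, adjusted p = 0.0576). Bhlhe41, a repressor of E-box activation, differed by −0.48 ± 0.13 (adjusted p = 0.147), at dim signals of 3.18 to 3.51 in CSN8ΔIEC and 3.75 to 3.95 in CSN8fl/fl crypts.

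Genes that modify or degrade PER and CRY showed no call. Of 17 listed, 15 were measured, none passed in either direction (limma, 2 at an unadjusted p under 0.05, near the 15% of all genes) and the median difference was 0.03. The largest was that of Dtl, a substrate receptor of the CUL4 and DDB1 ligase, at 0.84 ± 0.17 (adjusted p = 0.0659). Usp2, a deubiquitinase that is itself clock-controlled, was at 8.36, 8.90 and 8.67 in CSN8ΔIEC crypts, against 9.26, 8.99 and 9.69 in CSN8fl/fl crypts, without overlap (−0.67 ± 0.20, adjusted p = 0.179). Csnk1e, a kinase that marks PER for degradation, differed by 0.28 (adjusted p = 0.376), and Gsk3b, a kinase of several clock proteins, by −0.20 (adjusted p = 0.45). Fbxl21, an F-box protein that binds CRY, was at 6.53, 6.50 and 6.51 in CSN8ΔIEC crypts, against 6.90, 6.37 and 7.37 in CSN8fl/fl crypts.

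Lists of output genes were not called either. Of 11 clock-controlled genes of many tissues, 10 were measured, none passed (2 at an unadjusted p under 0.05, against 15% of all genes) and the median difference was 0.01. Besides Usp2, Tsc22d3, a glucocorticoid-induced leucine zipper gene with a daily rhythm in many organs, was at 7.80, 7.98 and 7.94 in CSN8ΔIEC crypts, against 8.63, 7.98 and 9.07 in CSN8fl/fl crypts (−0.66 ± 0.24, adjusted p = 0.254). It had the CSN8fl/fl order of Dbp. Cdkn1a, a cell cycle inhibitor, differed by −0.34 (adjusted p = 0.433) and the tetraspanin gene Tspan4 by 0.30 (adjusted p = 0.468). All 10 intestinal genes with daily rhythms were measured, none passed (1 at an unadjusted p under 0.05, against 15% of all genes) and the median difference was −0.12. Slc2a5, the fructose transporter, was at 10.36, 10.36 and 10.19 in CSN8ΔIEC crypts, against 10.75, 10.64 and 12.17 in CSN8fl/fl crypts (−0.89 ± 0.35, adjusted p = 0.282), and its difference was −0.40 without CSN8fl/fl replicate 3. The sodium-proton exchanger gene Slc9a3, the peptide transporter gene Slc15a1 and the fatty acid transporter gene Cd36 differed by −0.51, −0.35 and −0.23 (adjusted p from 0.43 to 0.624).

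Glucocorticoid-induced genes were listed because Per1 is one of them as well. Of 8 measured, none passed (3 at an unadjusted p under 0.05, against 15% of all genes), and the mean log2 signal of the list was 8.74, 8.61 and 8.86 in CSN8ΔIEC crypts, against 8.80, 8.20 and 8.90 in CSN8fl/fl crypts. By this mean, replicate 2 was the lowest array in both genotypes, as it was for Per1. Single genes of the list differed in CSN8ΔIEC crypts. Fkbp5 and Klf9 were lowest in replicate 2 there, but Tsc22d3 and Sgk1 were lowest in replicate 1. Fkbp5, a co-chaperone of the glucocorticoid receptor, was at 10.95, 9.84 and 11.41 in CSN8ΔIEC crypts, against 10.10, 8.96 and 10.49 in CSN8fl/fl crypts (0.88 ± 0.45, adjusted p = 0.404). Errfi1 differed by 0.77 ± 0.17 (adjusted p = 0.0825) and rose by 0.93 without CSN8fl/fl replicate 3 (adjusted p = 0.0388), and the phosphatase gene Dusp1 differed by −0.63 (adjusted p = 0.206). The immediate-early genes, which respond quickly to many stimuli, gave 0 calls among 10 (3 at an unadjusted p under 0.05, against 15% of all genes). Fos, Btg2, Jun and Fosb differed by −0.51, −0.40, −0.42 and −0.30 (adjusted p from 0.26 to 0.376). Of the 10, 8 had differences below 0, against 51.8% of all genes. The median was −0.17, and −0.32 without CSN8fl/fl replicate 3. All CSN8ΔIEC values lay below all CSN8fl/fl values for 2 of the 10, against 11.7% of all genes. Without CSN8fl/fl replicate 3 this held for 5, against 16.8%.

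Markers of other cell types also differed among the CSN8fl/fl arrays. The 9 measured tuft cell markers had a mean log2 signal of 6.19, 6.26 and 6.33 in CSN8ΔIEC crypts, against 7.50, 7.74 and 9.03 in CSN8fl/fl crypts. Of the 9, 4 fell with 6 arrays, against 0.702% of all genes. With CSN8fl/fl replicate 3 left out 5 fell, against 103 of the 19505 genes. None of the 9 was dim, and for 8 of them all CSN8ΔIEC values lay below all CSN8fl/fl values, against 11.7% of all genes. The 8 Paneth cell markers averaged 11.85, 11.52 and 12.34 in CSN8ΔIEC crypts, against 12.97, 12.96 and 12.92 in CSN8fl/fl crypts. Of these, 3 fell, against 0.702% of all genes, and 1 without CSN8fl/fl replicate 3, against 103 of the 19505 genes. For 6 of the 8, all CSN8ΔIEC values lay below all CSN8fl/fl values, against 11.7% of all genes. The median difference was −1.02. The 8 enterocyte markers averaged 12.31, 12.75 and 12.26 in CSN8ΔIEC crypts, against 12.56, 12.60 and 12.95 in CSN8fl/fl crypts. The 5 B and plasma cell markers averaged 5.60, 5.53 and 5.65 in CSN8ΔIEC crypts, against 6.15, 6.11 and 4.66 in CSN8fl/fl crypts. These 5 were not alike, with 4 differences below 0 and 1 above, from −0.87 to 1.51, and 0 calls with 6 arrays. Without CSN8fl/fl replicate 3, 2 of the 5 fell, against 103 of the 19505 genes. In that comparison all CSN8ΔIEC values of 4 lay below the CSN8fl/fl values, against 16.8% of all genes. The 5 measured stem cell markers, none of them called, averaged 8.92, 8.85 and 9.17 in CSN8ΔIEC crypts, against 8.92, 8.70 and 8.32 in CSN8fl/fl crypts. By list means, CSN8fl/fl replicate 3 was thus highest in tuft cell and enterocyte markers and lowest in proliferation, stem cell and B cell markers. It was also the highest array in Dbp, Per3, Nr1d1 and Nr1d2. The part of these cell types in its clock gene levels was not tested. In CSN8fl/fl replicates 1 and 2 Dbp was at 10.54 and 7.65. The means of these marker lists there were 7.50 and 7.74 (tuft cell), 12.56 and 12.60 (enterocyte), 6.15 and 6.11 (B and plasma cell), 9.93 and 9.83 (proliferation) and 8.92 and 8.70 (stem cell). The means of other lists had the CSN8fl/fl order of Dbp, an order found in 16.8% of all genes taken singly. The range of a mean over several markers cannot be set against that of 1 gene. The 6 T cell markers averaged 7.24, 7.45 and 7.30 in CSN8ΔIEC crypts, against 7.62, 7.31 and 8.02 in CSN8fl/fl crypts, and the 8 goblet cell markers 12.34, 12.29 and 12.40 in CSN8fl/fl replicates 1 to 3. The 5 endothelial markers, 3 of them dim, averaged 4.66, 4.58 and 4.69 there. The part of these cells in the Dbp levels was not tested.

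Labelled sex and age gave no call among the clock genes. In a limma model with genotype, the difference between arrays labelled male of 10 weeks and female of 16 weeks passed the threshold for 0.0154% of all genes and for 0 of the 10. At an unadjusted p under 0.05 there were 2, against 6.16% of all genes, Per3 (1.06 ± 0.40, adjusted p = 0.778) and Cry1 (−0.41 ± 0.16, adjusted p = 0.778). Dbp differed by 1.43 ± 0.78 (adjusted p = 0.782). The interaction with genotype passed for 0% of all genes and for 0 of the 10 (limma, 1 at an unadjusted p under 0.05, against 10.1% of all genes, Tef, −0.79 ± 0.26, adjusted p = 0.435), where the spread came from the arrays labelled female alone. The Dbp interaction was −2.42 ± 1.43 (adjusted p = 0.589).

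The genes whose 6 values were most like those of Dbp and Clock were taken by Pearson correlation, as a description over the same 6 arrays. For Dbp they were Olfr1434 (0.991), Il1f9 (0.990), Olfr1046 (0.988), Fbxl21 (0.983) and Epo (0.982). All 5 had smaller differences than Dbp, from −0.10 for Epo to −0.36 for Fbxl21, none with an adjusted p under 0.05. Olfr1434 and Il1f9 were dim on every array, with signals up to 3.43 and 4.63, under the 25th percentile of 4.94. For Clock they were Wapl (0.998), Nipa1 (0.995), Edc3 (0.991), Wfdc11 (0.991) and Pdcd7 (0.990), with differences from 0.08 to 0.30. All 10 likenesses rest on the same 6 arrays.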

How the data were processed

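Total RNA from crypts of 3 CSN8ΔIEC and 3 CSN8fl/fl samples had been hybridised to 6 arrays. The authors deposited log2 signals per probe set, made with RMA and Partek 6.6, per the submitters' processing notes. Their settings and genome build were not stated. Of 22206 probe sets, 19572 had 1 symbol and 2634 are unnamed here. For 55 genes with several probe sets the one with the highest mean was used, which left 19505 genes. Genotypes were compared as CSN8ΔIEC minus CSN8fl/fl with limma 3.58.1 in R 4.3.3 (lmFit, eBayes, 8.85 total degrees of freedom), two-sided, with Benjamini-Hochberg adjustment over all genes. Differences are log2 ± SE, and intervals are 95%. The fit was tested on simulated arrays with independent normal noise and known changes. Those held no atypical array and no sex or age effect, so the test does not show how the fit behaves on these arrays. Array medians lay between 6.70 and 6.76. With 3 arrays per genotype, array number sets the precision.

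The clock genes and all lists were chosen with earlier results of these data known. Of each list the 4 genes with the smallest p were named, besides Cops8 and the 5 genes most like Dbp or Clock; other genes named were chosen after their values were seen. Predicted genes, microRNAs and snoRNAs were left out of the search for like genes. The alternatives are given in the closing section. Some listed genes were not analysed here.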

Additional observations from a re-analysis of the deposited data

How the results depend on the processing

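Over 15 alternatives, 134 of 150 values of the clock genes kept their sign and their side of the threshold, 14 changed sign and 2 came to pass. The changes of sign were in Per1, Per2, Per3, Cry1 and Cry2. With arrays left out in turn, the log2 difference ranged from −0.61 to 0.26 for Per1, −0.51 to 0.11 for Per2, −1.09 to 0.12 for Per3, −0.12 to 0.25 for Cry1 and −0.16 to 0.14 for Cry2. With array weights it was 0.0468 for Per1 and 0.0276 for Cry2, and with arrays centred on their median 0.0275 for Cry2. Clock, Nr1d1, Nr1d2, Dbp and Tef kept their sign throughout, with ranges over arrays left out of 0.05 to 0.21, −1.61 to −0.82, −1.06 to −0.37, −2.73 to −0.69 and −0.86 to −0.60. The count of clock genes called was 0 to 1 with arrays left out, the 1 being Dbp without CSN8fl/fl replicate 2 (adjusted p = 0.0166, range over its alternatives 0.0166 to 0.716). It was also 1 with the replicate number as a block, where Nr1d1 had −1.20 (adjusted p = 0.0426, range 0.0426 to 0.398). The replicate block called 202 genes in all, against 210. The labels do not say whether the numbers pair the arrays, beyond the sex and age labels that same-numbered arrays share. Over all genes, same-numbered arrays had correlations of deviations from their group means of 0.12, −0.02 and 0.04. With 3 arrays per group these cannot decide whether the arrays are paired. The count of 210 genes was 324 with an intensity trend and ranged from 41 to 228 with arrays left out, 41 being without CSN8ΔIEC replicate 1. Each leave-out with 2 arrays in a group has fewer samples; the other causes were not tested. The count without CSN8fl/fl replicate 3 stayed 0 with dim probe sets left out, the only alternative run for it. The count for labelled sex and age stayed 0 with dim probe sets left out and with each array labelled female left out in turn. For the interaction, which rests on 1 array labelled male per genotype, dim probe sets left out was also the only alternative run.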
